A study of Mus musculus with 56 samples.

Results

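The genes described here are 37 interferon-stimulated effector genes of the mouse, followed through every treatment of a study of liver toxicity of antisense oligonucleotides. They were chosen by name with earlier results of these data known, so counts of them are a description and not an independent test. Each was read from array probe sets annotated to exactly 1 of them. Such probe sets, 65 in all, existed for 36 of the 37 genes, out of 18195 genes measured on the same arrays. Ifi44, a GTP-binding antiviral protein, had no probe set of 1 gene in the annotation used here and was not analysed here. Of the 36 genes, 20 had several probe sets and were read from the brightest.

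Type I interferons bind a receptor present on nearly every cell. Its kinases activate a transcription factor complex, of which Irf9 is a part, that binds the interferon-stimulated response element (ISRE) in the promoters of effector genes. Interferon-gamma acts through another sequence, the gamma-activated site (GAS). Hepatocytes, Kupffer cells (the resident macrophages of the liver) and sinusoidal endothelium can all respond, and the effector proteins block viral entry, replication, translation or budding, or adjust the signal itself.

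The drugs were LNA gapmers, short antisense strands with a DNA core between locked nucleic acid ends that lead RNase H to a matching transcript. The study set a non-toxic sequence (NTS-1) beside a toxic one (TS-2) and a severely toxic one (HTS-3) in order to learn how such strands harm the liver. Male CD-1 mice, an outbred strain, were 6 to 8 weeks old when dosing began and received 25 mg/kg of gapmer or the saline vehicle DPBS under the skin. Each array held the liver RNA of 1 mouse. After a single dose there were 3 vehicle mice at each of 8, 16 and 72 h. NTS-1 was measured in 3, 4 and 3 mice at those times and TS-2 in 4, 3 and 4. HTS-3 was measured in 3 mice at 8 h and 4 at 16 h, because its mice died or were killed moribund before 72 h. A second set of arrays held mice dosed on days 1, 4, 8 and 11 and examined on day 14, with 10 vehicle, 4 NTS-1 and 5 TS-2 mice. Of the 10 mice dosed per single-dose group, the 3 or 4 livers that ranked highest for slight hepatic hypertrophy were taken for RNA, so the mice of a group are not a random draw. For the mouse numbered 3 of the HTS-3 group at 8 h, 1 label gives 16 h and the others 8 h, and it was kept at 8 h.

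Values are intensities on a linear scale, with a precision set by how many arrays a group has. The single-dose arrays shared a floor of 4.56, at which 44.1 to 47.3% of their probe sets lay, and an intensity under 32 is called dim here. The lowest values of the 2-week arrays were 6.1 to 6.92, so levels are not compared between the sets. Hepatocyte markers were bright on every array, and their sum ranged from 266120 to 357442 over the single-dose groups. The mouse numbered 1 of the vehicle group at 16 h stood apart, with a neutrophil marker sum of 28605 where the other vehicle mice at that time had 247 and 497, and with the group's highest macrophage marker sum, 29754. Monocyte, plasmacytoid dendritic cell and NK cell markers were dim in nearly all single-dose groups. In whole liver, fewer cells of a type and less RNA per cell cannot be told apart.

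Promoters are shown first for some members that rose far and for some neighbours in the genome. Bst2, which came last in the order of loss, is also shown. The response element named above can be read in all of them but Cmpk2. The windows of Samd9l, Xaf1 and Slfn2, which are not shown, hold no match to it. Each line is the 250 bases before the start used for the promoter window, 5′ to 3′ on the strand of the gene, from RefSeq on build GRCm38.p6. For Cmpk2 and Slfn5 that start lies inside the annotated span of the gene, which begins at 26469117 and 82951349. Positions are given from the start of the window used. Capitals mark a match to the ISRE motif, here 2 copies of GAAA with any 2 bases between them, on either strand.
Rsad2, minus strand, chr12:26456453-26456702: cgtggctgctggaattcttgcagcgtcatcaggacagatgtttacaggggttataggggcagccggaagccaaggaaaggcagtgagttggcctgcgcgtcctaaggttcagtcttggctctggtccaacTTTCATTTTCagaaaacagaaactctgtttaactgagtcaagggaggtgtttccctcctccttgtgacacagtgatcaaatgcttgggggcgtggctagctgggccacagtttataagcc
Cmpk2, plus strand, chr12:26468965-26469214: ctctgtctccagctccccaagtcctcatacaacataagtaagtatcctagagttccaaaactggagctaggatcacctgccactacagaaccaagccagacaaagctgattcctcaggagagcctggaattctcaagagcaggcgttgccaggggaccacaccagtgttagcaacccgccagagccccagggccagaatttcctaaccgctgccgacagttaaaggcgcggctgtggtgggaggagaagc
Trim30a, minus strand, chr7:104465194-104465443: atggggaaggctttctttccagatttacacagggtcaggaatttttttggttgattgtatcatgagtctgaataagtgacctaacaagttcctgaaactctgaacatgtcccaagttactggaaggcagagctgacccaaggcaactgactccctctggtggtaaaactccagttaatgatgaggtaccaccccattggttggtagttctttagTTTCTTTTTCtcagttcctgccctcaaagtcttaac
Bst2, minus strand, chr8:71537473-71537722: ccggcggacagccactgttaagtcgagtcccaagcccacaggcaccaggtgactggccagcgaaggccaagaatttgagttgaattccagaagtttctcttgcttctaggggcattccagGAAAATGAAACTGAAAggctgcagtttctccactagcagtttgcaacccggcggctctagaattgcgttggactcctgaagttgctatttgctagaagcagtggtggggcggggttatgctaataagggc
Slfn5, plus strand, chr11:82951852-82952101: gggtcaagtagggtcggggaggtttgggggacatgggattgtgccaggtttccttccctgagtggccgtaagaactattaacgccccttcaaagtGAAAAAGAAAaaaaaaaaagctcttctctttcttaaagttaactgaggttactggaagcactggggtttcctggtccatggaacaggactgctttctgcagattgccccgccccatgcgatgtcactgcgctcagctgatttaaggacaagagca
Slfn8, minus strand, chr11:83020811-83021060: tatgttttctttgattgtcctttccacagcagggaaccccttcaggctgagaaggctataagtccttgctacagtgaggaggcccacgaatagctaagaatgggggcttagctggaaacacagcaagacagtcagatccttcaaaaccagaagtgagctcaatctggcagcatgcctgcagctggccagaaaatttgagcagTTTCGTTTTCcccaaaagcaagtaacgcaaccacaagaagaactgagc
Slfn9, minus strand, chr11:82991831-82992080: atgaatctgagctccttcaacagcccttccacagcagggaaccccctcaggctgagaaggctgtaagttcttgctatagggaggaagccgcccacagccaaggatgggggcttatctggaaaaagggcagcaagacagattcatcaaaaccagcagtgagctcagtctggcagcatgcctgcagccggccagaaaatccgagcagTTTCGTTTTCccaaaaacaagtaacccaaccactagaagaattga
Bst2 carries 2 overlapping matches, at -130 and -124 from its start. Slfn8 and Slfn9 carry theirs at -48 and -45. The window of Cmpk2 holds no match, whereas that of its neighbour Rsad2 has 1 at -120. Rsad2 and Cmpk2 lie 12.7 kb apart on chromosome 12, on opposite strands, at 26442743 to 26456452 and 26469117 to 26479837. The Schlafen genes form a run on chromosome 11, with gaps of 9.5 kb between Slfn5 and Slfn9, 10.3 kb to Slfn8 and 44.3 kb to Slfn2.

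Promoter windows of 300 bases, reaching 50 bases past the start, were in the table for 28 of the 37 members. An ISRE match was found in 10 of the 28 (35.7%), against 3.99% of 27025 genes in the same table. The GAS letters TTCNNNGAA, which read alike on both strands, matched in 4 of the 28 (14.3%), against 9.55% of all genes, and in Bst2 and Ifitm3 the 2 motifs overlap. Among members with a window, 6 of the 13 that rose after NTS-1 at 8 h had an ISRE match and 4 of the 14 measured members that did not pass that test had one. A match is a description of letters and not a binding site. No entry was used for Mx1, Mx2, Ly6e, Rtp4, Ifi27, Ifi27l2a, Parp9, Parp14 and Tor3a.

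The first question was what the non-toxic sequence did in the hours after a single dose. At 8 h NTS-1 raised 20 of the 36 members and lowered none, where 0.506% of all 18195 genes were called higher and 0.104% lower (limma, Benjamini-Hochberg adjusted p under 0.05). The median change over the members was 1.53 on the log2 scale, against 0 over all genes, and all 36 fitted changes lay above 0. Cmpk2, Rsad2, Trim30a and Samd9l rose furthest. The enzymes, the Schlafen family with Samd9l, the mitochondrial proteins and the pair of Epsti1 and Tor3a account for 11 of the 20 calls. None of the 4 RNA enzymes and RNA-binding proteins passed the test, nor did the galectin Lgals9 or the galectin ligand Lgals3bp. Fitted changes of these uncalled genes ran from 0.05 (Lgals9) to 2.75 (Znfx1), where the called Bst2 changed by 0.71. A missed threshold is thus not a difference between roles.

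The 2 enzymes of the group make antiviral metabolites or feed that step. Rsad2 (viperin) converts CTP into a chain-terminating nucleotide, and Cmpk2 is a mitochondrial nucleotide kinase. Intensities of Cmpk2 were 43.09, 102.5 and 76.14 in the vehicle mice at 8 h and 1354, 2106 and 1358 in the NTS-1 mice. Every NTS-1 mouse lay far above every vehicle mouse, and the log2 change was 4.50 ± 0.44 (SE, limma adjusted p = 1.85e-07), a 22.6-fold difference. Rsad2 read 57.63, 164.7 and 172.4 in vehicle mice and 2192, 4173 and 1265 after NTS-1. Its groups were again wholly apart, 19.2-fold, with a log2 change of 4.26 ± 0.50 (adjusted p = 4.22e-06).

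Of the 3 measured GTPases, the dynamin-like Mx1 and Mx2, which trap incoming viral particles, passed the test and Ifi47, an immunity-related GTPase, did not. Both Mx genes sat at the floor of 4.56 in all 3 vehicle mice at 8 h. Mx2 read 29.01, 33.04 and 37.92 after NTS-1, a mean at least 1.04-fold above the dim limit with 1 of 3 readings under it, and Mx1 stayed dim at 7.19, 24.2 and 8.73. The array gives little more than a bound for this pair, and the log2 changes of 2.86 and 1.33 depend on the floor. Ifi47 was higher in every NTS-1 mouse than in any vehicle mouse at 8 h, with a log2 change of 1.59 ± 0.52 that missed the threshold (adjusted p = 0.398).

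Among the membrane proteins, Rtp4, a Golgi chaperone of receptors that also dampens the interferon response, and Bst2 (tetherin), which holds budding virions at the cell surface, rose at 8 h. Rtp4 read 576, 726.1 and 829.4 in the vehicle mice and 8298, 8952 and 6315 after NTS-1. The groups did not overlap and the log2 change was 3.47 ± 0.47 (adjusted p = 4.02e-05), 11.1-fold. Bst2 was bright throughout, at 5977, 7357 and 6198 in vehicle mice and 11195, 10368 and 10247 after NTS-1. Its rise was small beside the others, 0.71 ± 0.14 (adjusted p = 0.00541) or 1.63-fold, and without the vehicle mouse numbered 1 the adjusted p was 0.0533. The entry blockers Ifitm3 and Ly6e did not pass the test at this time, with log2 changes of 0.28 ± 0.08 and 0.78 ± 0.31.

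Xaf1, a pro-apoptotic partner of the inhibitor XIAP, and Ifi27l2a, a small mitochondrial membrane protein, rose together at 8 h. Xaf1 went from 385.1, 430.4 and 546.7 in vehicle mice to 5647, 4391 and 5701, a log2 change of 3.54 ± 0.50 (adjusted p = 7.82e-05). Ifi27l2a went from 265, 828.7 and 520.3 to 10271, 6617 and 2956, a change of 3.59 ± 0.69 (adjusted p = 0.00483). Both pairs of groups were apart, but the call of Ifi27l2a is lost in 2 of 6 omissions of a mouse, with an adjusted p of 0.0629 without the NTS-1 mouse numbered 1 (limma). Their relative Ifi27 moved less, by 1.04 ± 0.27, and did not pass (adjusted p = 0.0868). The annotated spans of Ifi27 and Ifi27l2a overlap by 6057 bases on chromosome 12.

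Of the ADP-ribosylation genes, Parp14 and Parp9 rose and Dtx3l, the ubiquitin ligase that pairs with Parp9, did not pass. Parp14 read 38.19, 33.9 and 147.7 in the vehicle mice and 724.5, 923.2 and 661.1 after NTS-1. That is 13.2-fold, a log2 change of 3.72 ± 0.80 (adjusted p = 0.0185), with all NTS-1 mice above all vehicle mice. The call of Parp14 is lost when any of 5 of the 6 mice is left out. Parp9 read 862.1, 853.3 and 1117 against 2611, 3327 and 3111, a rise of 1.68 ± 0.28 (adjusted p = 0.000775). Parp9 and Dtx3l overlap by 558 bases on chromosome 16, 55 kb from Parp14, and the log2 change of Dtx3l was 1.26 ± 0.40 (adjusted p = 0.361).

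Trim30a was the 1 TRIM gene of 3 that rose. This ubiquitin ligase, a brake on Toll-like receptor signalling, read 38.62, 53.08 and 75.74 in vehicle mice and 790.5, 1068 and 782.2 in NTS-1 mice. All NTS-1 mice lay above all vehicle mice, 16.2-fold, with a log2 change of 4.02 ± 0.35 (adjusted p = 2.07e-08). Trim25, which activates the RNA sensor RIG-I, and Trim21, an antibody receptor of the cytosol, had changes of 0.50 ± 0.28 and 0.89 ± 0.34 that did not pass.

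All 5 genes of the Schlafen and Samd9l group rose. Samd9l, a restriction factor that arrests translation, read 40.77, 37.01 and 52 in vehicle mice against 518.1, 865.3 and 594.8, a rise of 3.91 ± 0.30 (adjusted p = 1.47e-09) or 15-fold. Slfn5 lay at 12.46 in each vehicle mouse and read 53.93, 74.86 and 33.07 after NTS-1, at least 1.6-fold. The Schlafen proteins, regulators of lymphocyte growth and of translation, had dim genes in vehicle mice, so that the changes of 1.47 (Slfn9) to 3.07 (Slfn8) depend on low readings. Slfn5 and Slfn9 each had other probe sets that did not move from the floor. Slfn8 and Slfn9 are close copies, and a shared signal between their probe sets cannot be told apart here.

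The rest of the calls at 8 h were spread over small groups. Ifi35, which pairs with Nmi in the cytosol and modulates the signal, read 8253, 8034 and 6837 in vehicle mice and 13068, 17288 and 15918 after NTS-1, 1.99-fold (1.00 ± 0.14, adjusted p = 9.01e-05). Tor3a, an ATPase of the endoplasmic reticulum, read 19.05, 17.14 and 21.75 against 174.6, 254.8 and 113.8, at least 5.36-fold (adjusted p = 4.58e-05). In both genes the groups were apart. Epsti1, an interferon-induced gene of macrophages and epithelium, rose at least 2.97-fold (adjusted p = 0.000414). Sp100, of the nuclear bodies that hold PML, passed with a change of 1.46 ± 0.22 although all its readings stayed dim. The nuclear body genes Pml and Daxx, the RNA-editing enzyme Adar, and Helz2, Znfx1 and Tdrd7 did not pass, at changes of 0.82 (Daxx) to 2.75 (Znfx1).

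**Figure D1:**
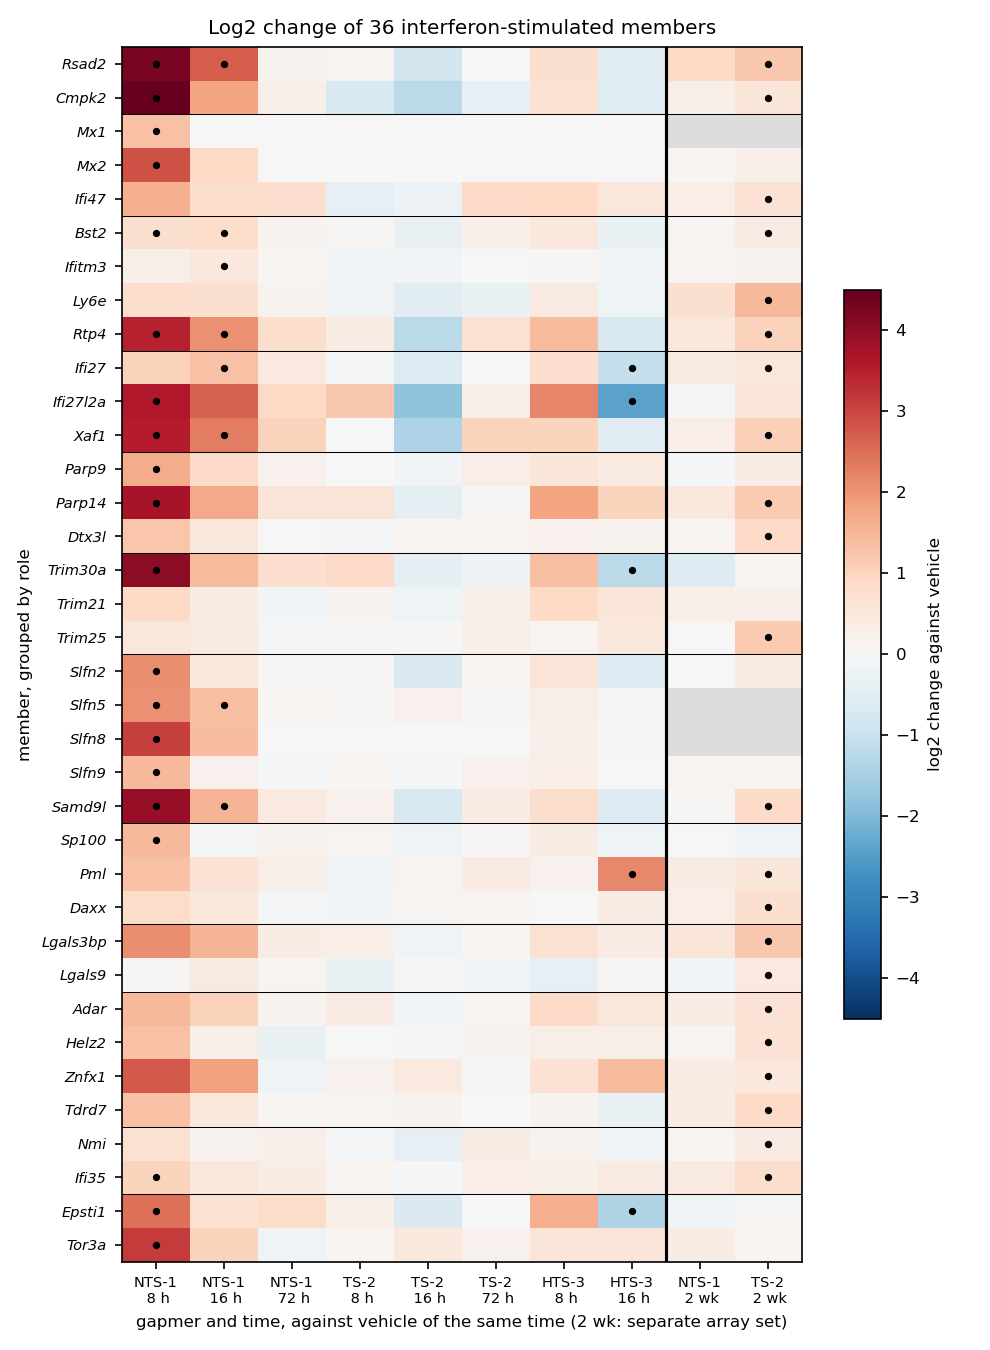
Log2 change of the 36 measured members (rows, grouped by role) against vehicle of the same time, for each gapmer and time (columns), with red for higher, blue for lower, a dot for adjusted p under 0.05 and grey for not tested. NTS-1 at 8 h has 20 dots and at 16 h 8, TS-2 has none after a single dose and 22 at 2 weeks, and HTS-3 at 16 h has 4 blue squares and 1 red one with a dot.

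The count of 20 rests on a spread estimated over all 11 single-dose groups. With the 6 compared mice fitted alone, 2 members passed, Mx2 (adjusted p = 0.025) and Xaf1 (adjusted p = 0.0432), while every fold change stayed as given. Across omissions of 1 mouse the count was 17 to 21, and 16 of the 20 calls were kept in every omission. Within the treated group, the NTS-1 mouse numbered 2 had the highest reading for 24 of 34 members that were not dim in all. Macrophage marker sums were 11666 to 17196 in NTS-1 mice at 8 h and 9818 to 12610 in vehicle mice, with none of the 8 markers called. Their part in the result was not tested.

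Other genes of the same pathway gave a frame for this response. Their lists were drawn up around the members, also with earlier results of these data known. Of 14 other antiviral genes, among them the Ifit and Oas families, 10 rose at 8 h, with a median change of 3.76, led by Ifit1, an RNA cap sensor, at 7.32 ± 0.85 (adjusted p = 3.97e-06). Usp18, which removes Isg15 and damps the receptor, rose 66.7-fold. Of 17 sensors and transcription factors 5 rose, led by Irf7, the factor that amplifies interferon production, at 4.46 ± 0.41 (adjusted p = 5.84e-08) or 22-fold. Of 15 ligands, receptors and signal transducers only Irf9 passed, 4.29-fold. Of 19 genes led by interferon-gamma 4 rose, with Cxcl10, a T cell chemokine, furthest at 26.7-fold. The members' median change of 1.53 lay below that of the antiviral genes and near the 1.64 of the interferon-gamma-led list.

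At 16 h NTS-1 left 8 members called higher and none lower, against 0.126% and 0.022% of all genes, with a member median of 0.82 against 0 over all genes. Of the 20 members called at 8 h, 6 were called again, Rsad2, Xaf1, Rtp4, Samd9l, Slfn5 and Bst2. Ifi27 and Ifitm3 were called at 16 h and not at 8 h, but the difference between the times did not pass for either. The vehicle mice are different animals at each time.

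Rsad2 kept the largest change of the members called at 16 h. It read 213.1, 240 and 394.9 in vehicle mice and 1209, 3227, 1391 and 1891 after NTS-1, wholly apart, with a change of 2.72 ± 0.47 (adjusted p = 0.00496) or 6.57-fold. Xaf1 read 1425, 352.8 and 468.9 against 3112, 3562, 2095 and 3652, 4.91-fold (2.30 ± 0.47, adjusted p = 0.0346). Rtp4 read 2038, 688.1 and 1278 against 4027, 6702, 4569 and 5450, 4.19-fold (2.07 ± 0.44, adjusted p = 0.0488). In both Xaf1 and Rtp4 the vehicle mouse numbered 1, the one with the high neutrophil markers, was the highest of its group. Without it the changes were 2.90 for Xaf1 (adjusted p = 0.00263) and 2.44 for Rtp4 (adjusted p = 0.0216). Other omissions ended these calls, 5 of 7 for Xaf1 (adjusted p up to 0.143) and 6 of 7 for Rtp4 (up to 0.185).

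Samd9l read 148.8, 78.07 and 66.33 in vehicle mice and 237.9, 295.2, 192.7 and 370.1 after NTS-1, a change of 1.54 ± 0.28 (adjusted p = 0.00946). Bst2 read 8747, 7634 and 7830 against 13908, 16465, 12426 and 14920, a change of 0.83 ± 0.13 (adjusted p = 0.0012). Every NTS-1 mouse lay above every vehicle mouse in both genes. Ifi27 was raised 2.48-fold (adjusted p = 0.0195) and Ifitm3, the endosomal entry blocker, 1.37-fold (adjusted p = 0.00278). Slfn5 was called higher (adjusted p = 0.00278) with a mean just above the dim limit.

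The 16 h count depends on single mice. It was 4 without the vehicle mouse numbered 2 or 3, 5 without the NTS-1 mouse numbered 2 or 4, and 9 without the vehicle mouse numbered 1. Rsad2, Bst2, Ifitm3 and Slfn5 passed in every omission, and none of the 8 passed when the 7 mice were fitted alone. With array weights in the model 18 members passed. Macrophage marker sums were 17778 to 20356 in the NTS-1 mice and 13303, 14083 and 29754 in the vehicle mice, and their part in the result was not tested. On the pathway lists, 7 of 14 other antiviral genes and 2 of 17 sensors were still called, Irf7 17.8-fold and Dhx58, a RIG-I-like RNA-binding protein, 5.25-fold, while no ligand, receptor or interferon-gamma-led gene was.

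**Figure D2:**
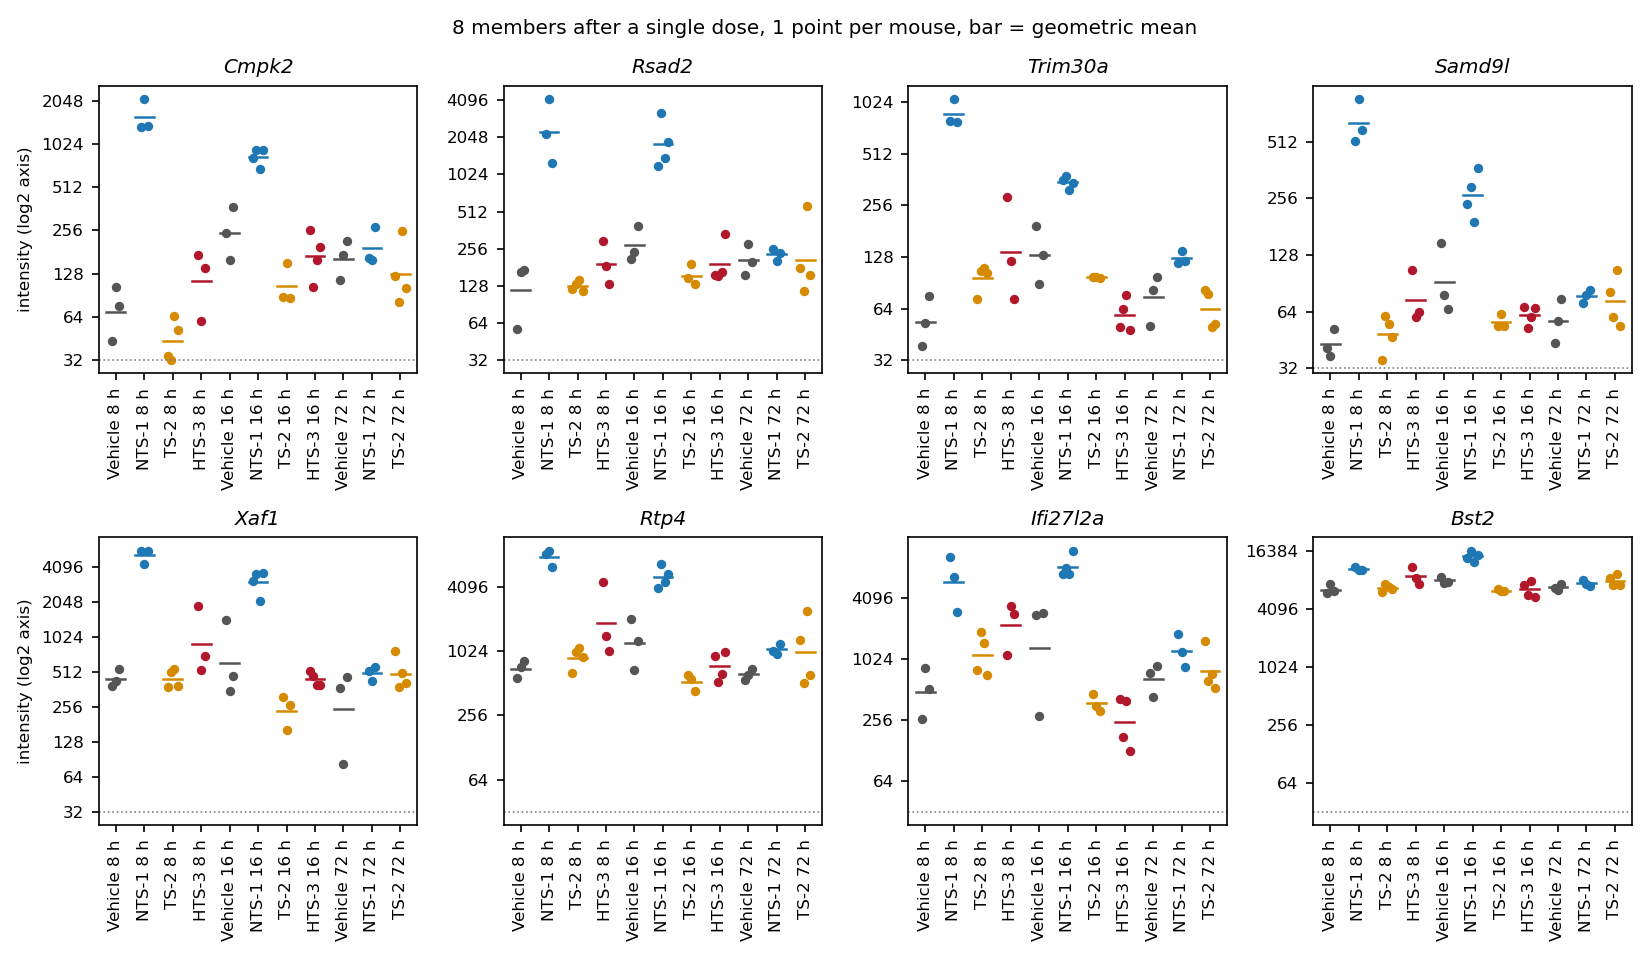
Intensity (log2 axis) of 8 members in every single-dose mouse, 1 point per mouse, with a bar at the geometric mean of each of the 11 groups and a dotted line at the dim limit of 32. The 8 h NTS-1 mice stand highest for Cmpk2, Trim30a and Samd9l and the 16 h NTS-1 mice lie lower, while Bst2 reads 12426 to 16465 in NTS-1 mice at 16 h and 10247 to 11195 at 8 h.

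By 72 h no member was called after NTS-1, and neither was any gene (0% of 18195). In limma 4 members and 793 genes had an unadjusted p under 0.05. The member median was 0.15 and 25 of 36 fitted changes lay above 0. Cmpk2 read 115.5, 173.3 and 215.4 in vehicle mice and 164.8, 160 and 268 after NTS-1, and the groups overlapped. Trim30a read 50.67, 82.77 and 98.07 against 117.7, 138.2 and 122, and these groups were still apart, with a change of 0.76 ± 0.35 that did not pass (adjusted p = 1). Macrophage marker sums were 15724 to 18755 in NTS-1 mice and 7330 to 11323 in vehicle mice at 72 h, with all 8 fitted changes above 0 and none called. Their part in the remaining differences was not tested.

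Among the 20 members called at 8 h, the median share of the log2 change left was 42.3% at 16 h and 11.1% at 72 h. These members were chosen by their 8 h change, which is also the divisor, so the shares may read low. At 16 h 7 members kept more than 50% and 13 less. The smallest shares were those of Sp100 (-3.51%), Mx1 (0.118%), Slfn9 (13.4%) and Slfn2 (23.2%), all dim in vehicle mice at both times. The largest were those of Bst2 (118%), Ifi27l2a (74%), Slfn5 (66.9%) and Xaf1 (64.9%). Shares can depend on the probe set. A second, dimmer one of Xaf1 changed by 3.38 at 8 h and 0.11 at 16 h. Other probe sets of Rsad2 changed by 5.08 and 3.06 at 8 h and by 3.21 and 2.11 at 16 h. Ordered by the log2 change lost between 8 and 16 h, Cmpk2, Trim30a, Samd9l and Tor3a came first and Parp9, Slfn5, Ifi35 and Bst2 last. A larger change at 8 h leaves more to lose, so this order is not one of speed of decay. The order of neighbours is not resolved, since 18 of 19 neighbouring pairs differed by less than the larger of their SEs. No test was made between genes.

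At the head of the order, Trim30a went from 4.02 above vehicle to 1.41, a change of -2.61 ± 0.48 that passed the test of the difference between times (limma adjusted p = 0.017). The effect on Samd9l changed by -2.37 ± 0.41 (adjusted p = 0.00996). Mx2, Slfn9 and Sp100 also passed, which makes 5 members with a smaller effect at 16 h, against 0.0714% of all genes. Cmpk2 had the largest loss, -2.73 ± 0.60, but did not pass (adjusted p = 0.103). The change of Tor3a was -2.16 ± 0.59 (adjusted p = 0.599). Without the vehicle mouse numbered 1 at 16 h, or the one numbered 1 at 8 h, 3 members passed, and in the first case Trim30a changed by -2.33 (adjusted p = 0.0849). Fitted on the 4 groups alone, none passed.

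At the foot of the order, Bst2 gained 0.12 ± 0.19, so its effect at 16 h was 118% of that at 8 h. The effect on Ifi35 changed by -0.50 ± 0.19, and it read 10774, 13320, 10674 and 13284 in NTS-1 mice at 16 h against 10021, 7748 and 7905 in vehicle mice. That on Slfn5 changed by -0.67 ± 0.33, with 21.09, 35.44, 39.33 and 36.6 against 11.71, 11.71 and 14.33. That on Parp9 changed by -0.82 ± 0.38, with 1706, 2356, 1788 and 2161 against 1099, 1050 and 1142. In these 3 genes every NTS-1 mouse still exceeded every vehicle mouse at 16 h. Rsad2 kept 63.7% of its log2 change and its neighbour Cmpk2 39.4%, with losses of -1.55 ± 0.68 and -2.73 ± 0.60 whose difference was not tested.

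The loss of effect combines the change of level in NTS-1 mice with that in vehicle mice. For Cmpk2 the level in NTS-1 mice moved by -0.91 from 8 to 16 h, and the level in vehicle mice was higher by 1.81 ± 0.44 (adjusted p = 0.0406). It was the 1 member whose vehicle level changed by the test, against 0.478% of genes called higher and 0.456% lower. The vehicle readings of Cmpk2 were 43.09, 102.5 and 76.14 at 8 h and 244.7, 160 and 372.8 at 16 h, with no overlap. Rsad2 shows the same shape without a call, -0.34 in NTS-1 mice and 1.21 in vehicle mice. That vehicle call of Cmpk2 was lost in 3 of 6 omissions of 1 mouse, with an adjusted p of 0.0888 (limma) without the vehicle mouse numbered 1 at 16 h, and the count ran from 0 to 3. All 8 macrophage markers (median 0.74) and 7 of 8 neutrophil markers (median 2.25) had higher fitted vehicle levels at 16 h, none of them called, and their part was not tested.

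For Mx1, Mx2, Slfn8, Slfn9 and Sp100 the fitted vehicle level moved by 0.19 or less. All 5 were dim in vehicle mice at both times, with Mx1, Mx2 and Slfn8 at or near the floor. A vehicle change there can go unseen, so the source of their loss cannot be set against that of Cmpk2. These 5 genes, with Trim30a (-1.31 ± 0.33, adjusted p = 0.0268) and Samd9l (-1.27 ± 0.28, adjusted p = 0.0098), were called lower in NTS-1 mice at 16 h than at 8 h. These 7 compare with 1.13% of genes called lower. Slfn9, for example, read 70.17, 84.59 and 70.99 at 8 h and 32.52, 43.49, 32.4 and 31.45 at 16 h after NTS-1, near the 30.24 of the vehicle mice. Lgals9, a galectin that binds the checkpoint receptor Tim-3, moved the other way, higher by 0.49 ± 0.13 (adjusted p = 0.0478) against 0.951% of genes. The count of 8 was 4 without the NTS-1 mouse numbered 2 at 8 h or numbered 3 at 16 h, and 5 without the one numbered 4 at 16 h.

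**Figure D3:**
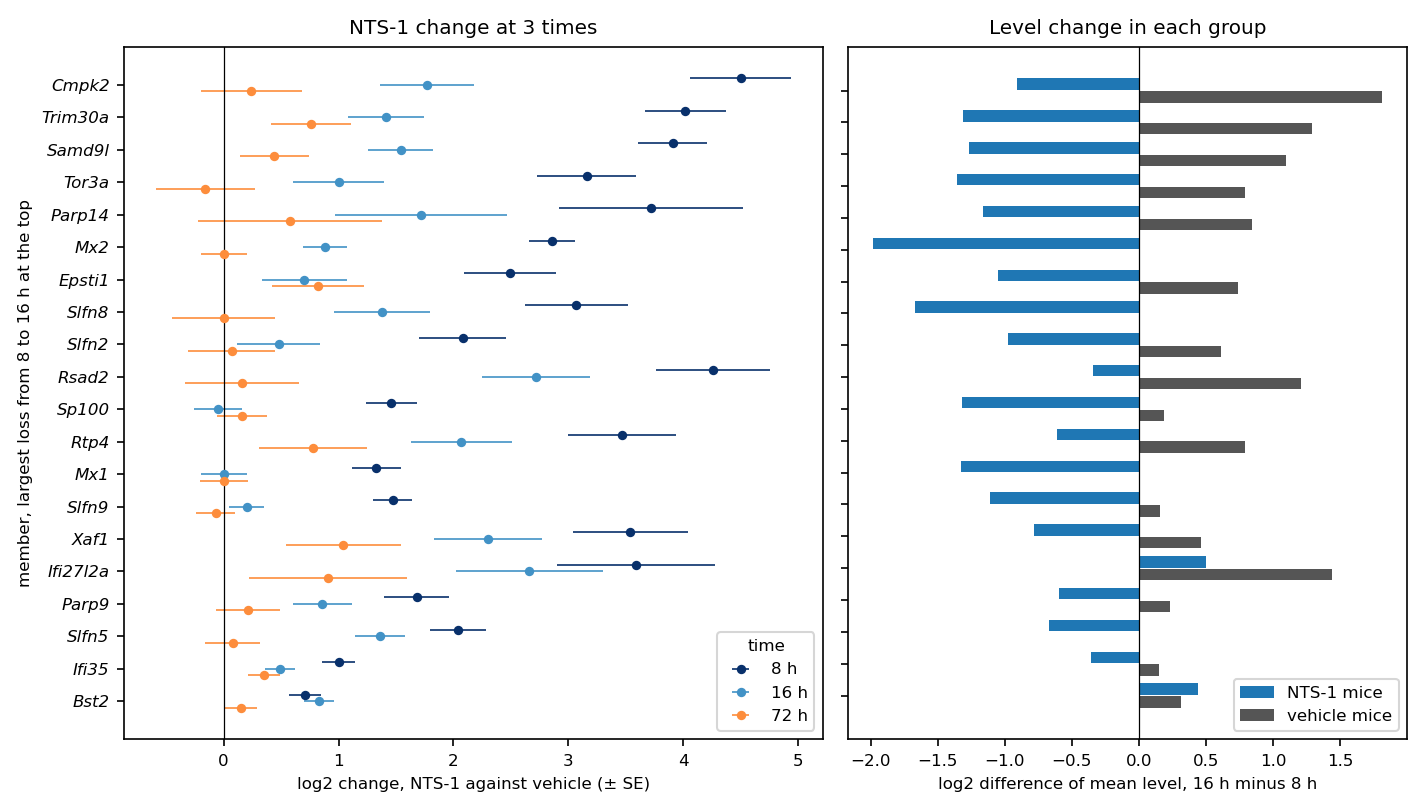
Left, log2 change of the 20 members called at 8 h after NTS-1 against vehicle of the same time at 8, 16 and 72 h (points, with bars of 1 SE), ordered by the loss from 8 to 16 h. Right, log2 difference of the mean level between 16 and 8 h in NTS-1 mice (blue) and vehicle mice (grey), with the vehicle bar longer than the NTS-1 bar for Cmpk2 (1.81 and -0.91) and absent for Mx2, whose vehicle readings were at the floor.

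Between 8 and 72 h the effect of NTS-1 shrank by the test in 9 members, Rsad2, Cmpk2, Mx2, Trim30a, Slfn5, Slfn8, Slfn9, Samd9l and Tor3a, against 0.192% of all genes. The largest losses were -4.26 ± 0.62 for Cmpk2 (limma adjusted p = 0.000478) and -4.10 ± 0.71 for Rsad2 (adjusted p = 0.00378). Cmpk2 and Rsad2 then kept 5.29% and 3.78% of their 8 h log2 change. Epsti1 and Ifi35 kept 32.9% and 35.2%, with losses that did not pass.

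The toxic sequence TS-2 gave no such response after a single dose. No member was called at 8, 16 or 72 h, against 0.0055%, 0% and 0.011% of genes called higher and 0.0385%, 0.0165% and 0.126% called lower in limma. Unadjusted p values under 0.05 were reached by 2, 7 and 2 members, beside 942, 792 and 769 genes. Member medians were 0.05, -0.15 and 0.09. With array weights 4 members passed at 16 h and none of the other settings tried gave a call at any of these times.

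At 8 h Cmpk2 read 33.81, 31.78, 64.7 and 51.39 after TS-2, below or among the vehicle readings, with a change of -0.68 ± 0.41 (adjusted p = 1). Rsad2 read 121.8, 131.8, 143.6 and 116.5, within the range of the vehicle mice. At 16 h 27 of the 36 fitted changes were 0 or lower, the largest in Ifi27l2a (-1.81 ± 0.69, adjusted p = 0.915) and Xaf1 (-1.39 ± 0.50, adjusted p = 0.915). The vehicle mouse numbered 1, with its high readings of both genes, is in that comparison. At 72 h the TS-2 mouse numbered 3 was the highest of its group for 23 of 28 members, for example with 569.4 for Rsad2 where the others had 180.5, 116.4 and 157.4.

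Set directly against NTS-1 at the same dose and time, TS-2 left 21 members lower at 8 h (0.506% of genes called lower) and 12 lower at 16 h (0.225%), with none higher. At 8 h the difference reached 36.1-fold for Cmpk2 (-5.17 ± 0.41 on the log2 scale, adjusted p = 3.51e-09) and 17.7-fold for Rsad2. At 16 h it was largest for Ifi27l2a, 22.2-fold (adjusted p = 0.000194), where TS-2 mice read 467.1, 354 and 316.3 and NTS-1 mice 6997, 8036, 7044 and 12010. No mouse of one group reached the other in these genes. In all 36 members the fitted level after TS-2 was the lower one or equal at both times. At 72 h no member differed by the test (0.154% of genes called lower, 3 members at an unadjusted p under 0.05 beside 1134 genes), and fitted differences ran from -0.97 ± 0.33 for Trim30a to 0.48 ± 0.38 for Helz2.

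The severely toxic sequence HTS-3 left no member past the test at 8 h (0.165% of genes called higher and 0.423% lower). In limma 10 members and 2066 genes had an unadjusted p under 0.05. The member median was 0.50 and 33 of 36 fitted changes lay above 0. The nearest to a call were Epsti1 at 1.63 ± 0.40 (adjusted p = 0.0552) and Trim30a at 1.34 ± 0.35 (adjusted p = 0.082). Trim30a read 288.6, 120.7 and 72.49 against vehicle readings of 38.62, 53.08 and 75.74, and the groups overlapped. Ifi27l2a read 1130, 3379 and 2826 against 265, 828.7 and 520.3, and these did not overlap (2.19 ± 0.69, adjusted p = 0.19).

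The HTS-3 mice at 8 h were unlike each other. The mouse numbered 1 was the highest for 28 of 30 members, such as Ifi47 at 15481 where its group mates had 1855 and 2451. Without the mouse numbered 2 or 3 the count of calls was 3. Macrophage marker sums were 14759, 18638 and 26383 after HTS-3 and 9818 to 12610 in vehicle mice, with all 8 fitted changes above 0 and none called, and their part in the result was not tested. Against NTS-1 at 8 h 14 members were lower (0.5% of genes), led by Cmpk2 at 13.9-fold (adjusted p = 4.99e-06) and Rsad2 at 11.7-fold. Without the HTS-3 mouse numbered 1 that count was 22, and on the 2 groups alone it was 0.

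At 16 h, when HTS-3 changed many genes, 4 members fell and 1 rose, against 4.03% and 3.31% of all genes, and the member median was 0. Those that fell were Ifi27, Ifi27l2a, Trim30a and Epsti1, and the one that rose was Pml, the organiser of nuclear bodies. Ifi27l2a read 2791, 282.4 and 2887 in vehicle mice and 413.2, 176, 397 and 128.3 after HTS-3. These groups overlap because the vehicle mouse numbered 2 was low, and the change was -2.41 ± 0.64 (limma adjusted p = 0.0172), 5.33-fold. Ifi27 fell by 1.06 ± 0.25 on the log2 scale (adjusted p = 0.00718), with every HTS-3 mouse (1626 to 2617) under every vehicle mouse (2995 to 6161).

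Trim30a read 194.5, 89.45 and 131.6 in vehicle mice and 49.88, 63.74, 77.39 and 48.01 after HTS-3, 2.25-fold lower with no overlap (adjusted p = 0.024). Epsti1 read 61.26, 19.04 and 19.04 against 7.45, 14.77, 19.04 and 7.34, a change of -1.34 ± 0.37 between dim means (adjusted p = 0.0236). Only the vehicle mouse numbered 1 was above the dim limit for Epsti1. Pml read 14.73, 8.62 and 16.57 against 34.21, 28.11, 26.97 and 406.1, a change of 2.15 ± 0.63 (adjusted p = 0.0343), at least 1.78-fold. One HTS-3 mouse, numbered 4, carries most of that rise, and without it the change of Pml was 1.21 (adjusted p = 0.14). Another probe set of Pml moved by 0.28.

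Each of these 5 calls was lost in at least 1 omission. Without the vehicle mouse numbered 1, the changes were -1.87 for Ifi27l2a (adjusted p = 0.152), -0.77 for Ifi27 (adjusted p = 0.1), -0.89 for Trim30a (adjusted p = 0.195) and -0.77 for Epsti1 (adjusted p = 0.305), and Pml rose by 2.25 (adjusted p = 0.0746), so that none of the 5 passed. Ifi35 alone passed without that mouse, as a rise. The count was thus 1, 2 without the vehicle mouse numbered 3, 3 without the HTS-3 mouse numbered 1 and 1 without the one numbered 4. With array weights it was 3 and on the 2 groups alone 0. Macrophage marker sums were 9086 to 13350 after HTS-3 and 13303, 14083 and 29754 in vehicle mice, with Vsig4, a Kupffer cell receptor, lower by the test (-0.86 ± 0.25, adjusted p = 0.0322). The endothelial markers Stab2 and Kdr were also lower, 2.89-fold and 2-fold. Their part in the result was not tested.

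The effect of HTS-3 differed between 16 and 8 h in 5 members, all of them lower at 16 h, against 1.08% of genes (0.242% were higher). In the same contrast all 8 macrophage markers were lower (median -1.58, 3 called), as were all 5 endothelium markers (median -0.47, none called), and their part in the result was not tested. Ifi27l2a turned from 2.19 above vehicle to 2.41 below it, a difference of -4.60 ± 0.94 (limma adjusted p = 0.0103). Epsti1 (-2.97 ± 0.54, adjusted p = 0.00418), Trim30a (-2.51 ± 0.48, adjusted p = 0.00587) and Ifi27 (-1.82 ± 0.37, adjusted p = 0.0103) did likewise. Those 4 passed in every omission of 1 mouse, whereas Bst2 (-0.78 ± 0.19, adjusted p = 0.031) did not, and none passed on the 4 groups alone. With the HTS-3 mouse of doubtful label placed at 16 h, 2 members passed for this difference, Trim30a and Bst2, and 1 for HTS-3 at 16 h, Trim30a. Against NTS-1 at 16 h, 16 members were lower after HTS-3 (4.46% of genes) and none higher (5.18%), with Ifi27l2a 33.7-fold (adjusted p = 6.6e-07) and Rsad2 9.29-fold apart. Of the markers, 3 of 8 for macrophages (median -0.82) and 2 of 5 for endothelium were called lower in that comparison, and their part was not tested.

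**Figure D4:**
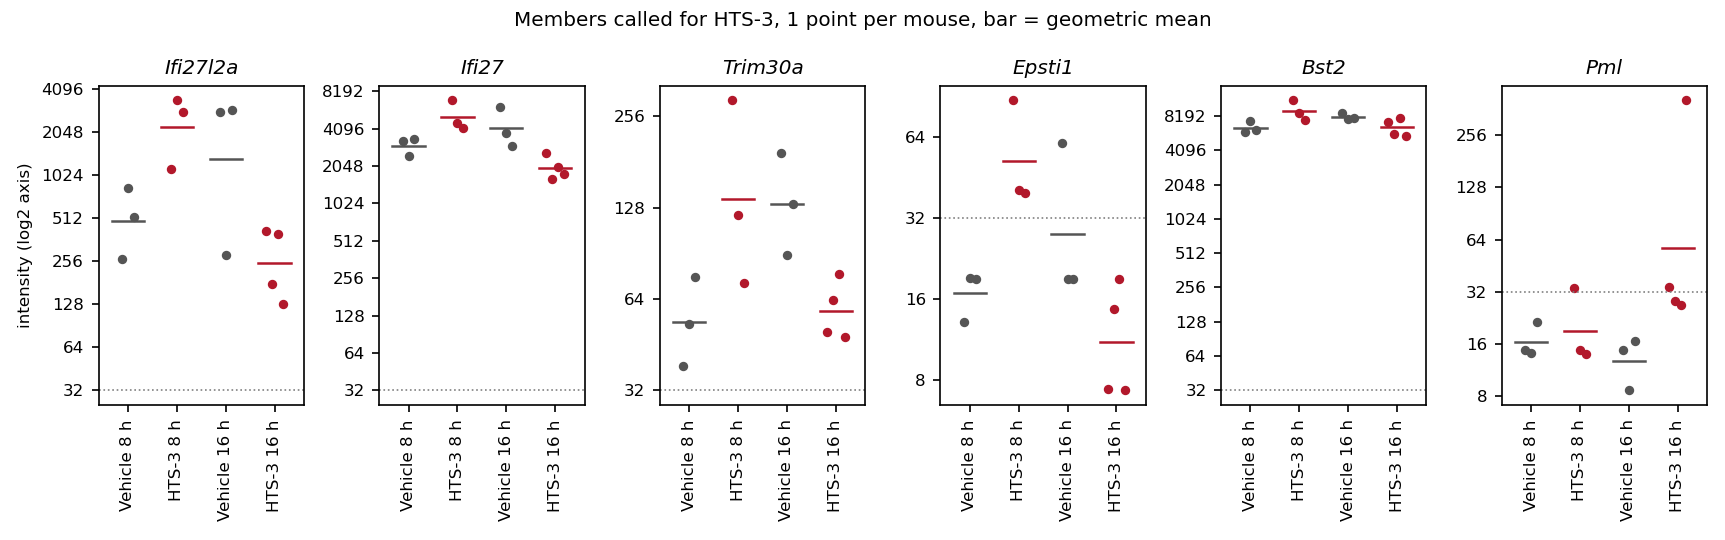
Intensity (log2 axis) of 6 members in the vehicle and HTS-3 mice at 8 and 16 h, 1 point per mouse, with a bar at the geometric mean and a dotted line at the dim limit of 32. Ifi27l2a, Ifi27, Trim30a and Epsti1 lie above most vehicle mice at 8 h and below most at 16 h, and 1 HTS-3 mouse at 406.1 stands alone for Pml.

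After 2 weeks of repeated dosing, it was TS-2 whose members passed the test. TS-2 raised 22 of the 33 members tested and lowered none. That stands against a broad change in which 22.8% of all 14454 genes were called higher and 14.6% lower. The member median was 0.54, against -0.01 over all genes, and the largest changes were 1.46 (Ly6e) and 1.23 (Lgals3bp). Another probe set of Ly6e, not dim in any TS-2 or vehicle mouse, moved by 0.52. Both enzymes, Lgals9 and its ligand gene Lgals3bp, all 4 RNA enzymes and RNA-binding proteins, and the pair of Nmi and Ifi35 passed. Mx2, Slfn2, Slfn9, Sp100, Epsti1 and Tor3a were among those that did not. For Adar, which passed at 0.64, a second probe set that was not dim moved by 0.06 and a dim one by 0.01. The probe sets used for Mx1, Slfn5 and Slfn8 were too dim on these arrays to be tested. A different probe set of Slfn5, not dim in any TS-2 or vehicle mouse, moved by -0.08.

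Ly6e, a membrane protein that hinders viral fusion, ranged from 1860 to 3545 over the 10 vehicle mice, with a median of 2832. The TS-2 mice read 2843, 6547, 8606, 10906 and 12206, so that 4 of 5 lay above every vehicle mouse, 2.76-fold in the mean (1.46 ± 0.26, limma adjusted p = 0.000228). Lgals3bp, a secreted ligand of galectins, ranged from 191.3 to 558 with a median of 259.3. It read 392.2, 594.5, 749.8, 881.2 and 610.3 after TS-2, 2.35-fold (1.23 ± 0.21, adjusted p = 0.000135), and again the lowest TS-2 mouse lay among the vehicle mice.

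Rsad2 ranged from 181.9 to 342.6 in vehicle mice, with a median of 275, and read 259.8, 665.4, 762.4, 1459 and 436.8 after TS-2. Its change was 1.21 ± 0.27 (adjusted p = 0.00139), 2.31-fold. Other probe sets of Rsad2 moved by 1.46 and 0.45. Trim25 ranged from 1081 to 1695, with a median of 1351, and read 1650, 3563, 2622, 4820 and 3487, a change of 1.18 ± 0.17 (adjusted p = 2.61e-05). In Ly6e, Lgals3bp, Rsad2 and Trim25 alike the TS-2 mouse numbered 1 was the lowest, as it was for 24 of the 33 members.

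In a further 4 members, looked up after their values were seen, every TS-2 mouse lay above every vehicle mouse, 4 of the 33 tested where 7.8% of all 14454 genes were apart in this way. Dtx3l read 677.6 to 822.4 after TS-2 and 282.3 to 521.6 in vehicle mice (0.87 ± 0.12, adjusted p = 2.42e-05). Daxx, a histone chaperone of nuclear bodies, read 197.3 to 295 against 126.9 to 185. Helz2, a helicase that coactivates nuclear receptors, read 591.8 to 856.5 against 340.9 to 563.1. Tdrd7, a Tudor protein that restrains autophagy of use to viruses, read 705.1 to 877.6 against 247.2 to 557.9. None of these 4 was called for NTS-1 at 8 h, where the fitted changes were 1.26 (Dtx3l), 0.82 (Daxx), 1.32 (Helz2) and 1.33 (Tdrd7).

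**Figure D5:**
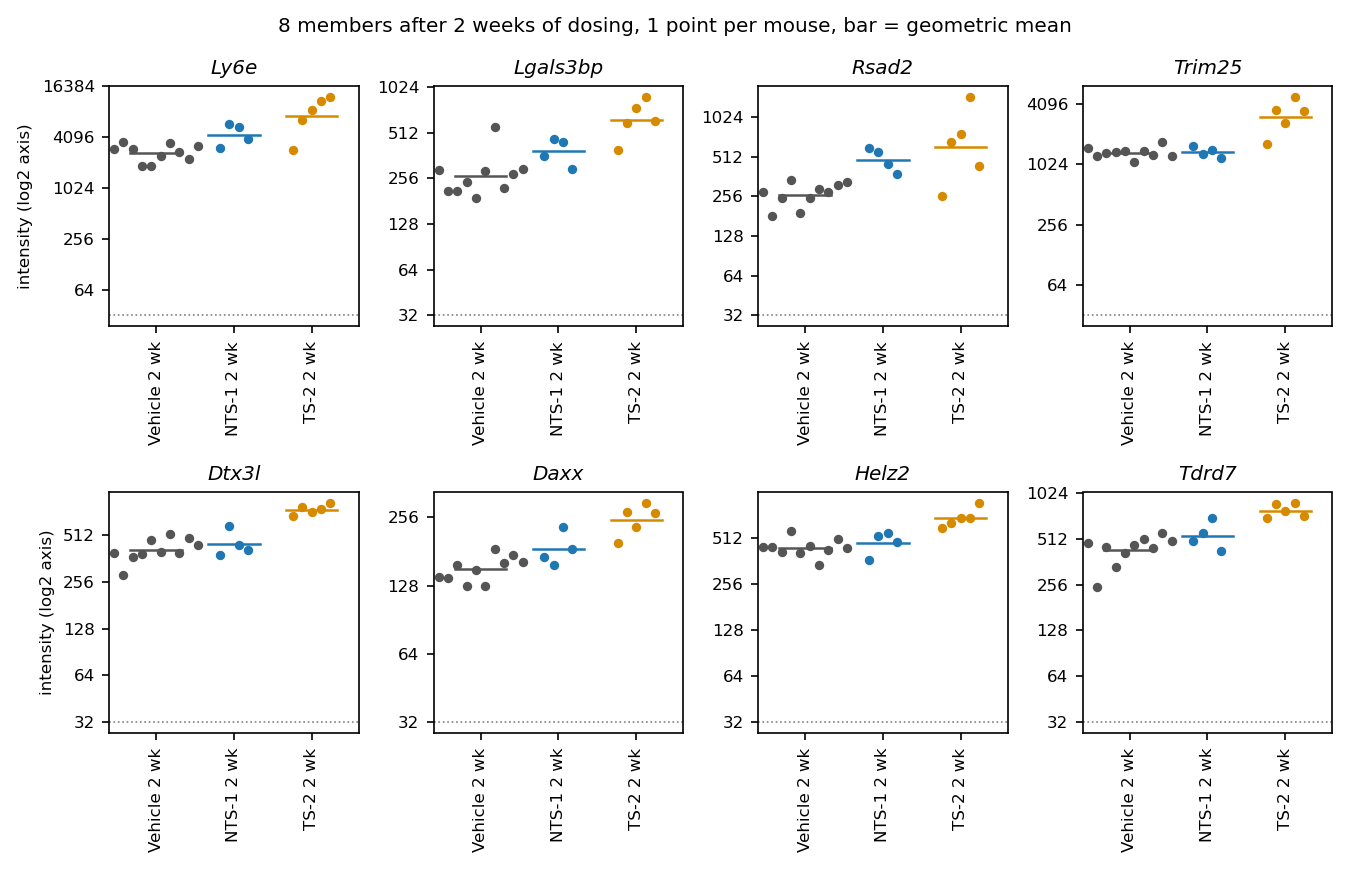
Intensity (log2 axis) of 8 members in the 19 mice of the 2-week study, 1 point per mouse, with a bar at the geometric mean of the vehicle, NTS-1 and TS-2 groups and a dotted line at the dim limit of 32. Most TS-2 mice lie above the vehicle mice, with 4 of 5 above all of them for Ly6e and all 5 for Dtx3l, Daxx, Helz2 and Tdrd7. For Rsad2 the lowest TS-2 mouse lies under every NTS-1 mouse.

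The 2-week count was 18 to 25 across omissions of 1 mouse, and 17 of the 22 calls passed in every omission. Cmpk2, Bst2, Ifi27, Lgals9 and Nmi did not. Macrophage marker sums were 2180 to 13127 after TS-2 and 1638 to 6269 in vehicle mice, with Marco 3.27-fold and Cd68 2.31-fold higher by the test. The endothelial markers Clec4g, Kdr and Stab2 were lower, 2.3-fold, 1.86-fold and 1.65-fold. Their part in the members' rise was not tested.

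The counts on the pathway lists for TS-2 at 2 weeks stand against the same 22.8% of all genes called higher. Of 14 other antiviral genes 9 were higher, led by Usp18 at 9.31-fold (adjusted p = 5.1e-06) and Ifit1 at 4.55-fold. Of 17 sensors and factors 8 were higher, led by Zbp1, a sensor of Z-form nucleic acids, at 3.35-fold, with Irf7 at 2.16-fold. Of 13 ligands, receptors and transducers 5 were higher, namely Irf9, Tyk2, Jak2, Ifnar1 and Ifnar2, the last at 1.28-fold. Of 19 interferon-gamma-led genes 10 were higher, led by the GTPases Igtp (2.97-fold) and Irgm1 (2.49-fold).

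NTS-1 at 2 weeks raised no member by the test, and lowered none, against 1.87% of genes called higher and 3.04% lower. In limma 10 members and 2934 genes had an unadjusted p under 0.05, and 26 of 33 fitted changes lay above 0 with a median of 0.26. Rsad2 came nearest to a call, at 598.2, 554, 448.2 and 381.8 against the vehicle range of 181.9 to 342.6. All 4 NTS-1 mice lay above all vehicle mice, and the change was 0.89 ± 0.29 (adjusted p = 0.0789). With array weights 5 members passed, on the 2 groups alone 2, after quantile normalization 1, and without the vehicle mouse numbered 7 also 1.

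Against NTS-1 at 2 weeks, TS-2 mice had 8 members higher and none lower, where 14.1% of genes were called higher and 6.93% lower. They were Trim25, Dtx3l, Xaf1, Samd9l, Daxx, Lgals9, Helz2 and Tdrd7. Trim25 led with 2.23-fold (1.16 ± 0.21, adjusted p = 0.0012), its NTS-1 mice reading 1568, 1301, 1412 and 1195, with no overlap. Only Trim25 and Dtx3l passed in every omission. All 8 macrophage markers had fitted changes above 0 (median 0.76, none called) and 1 endothelium marker was called lower, and their part was not tested. The count was 2 without the NTS-1 mouse numbered 1, 3 without the NTS-1 mouse numbered 4 or the TS-2 mouse numbered 2 or 4, and 5 without the TS-2 mouse numbered 3 or 5. Rsad2 was not among the 8, being raised over vehicle by 1.21 in TS-2 mice and 0.89 in NTS-1 mice.

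The lists of members called for NTS-1 at 8 h and for TS-2 at 2 weeks share 8 genes, Bst2, Cmpk2, Ifi35, Parp14, Rsad2, Rtp4, Samd9l and Xaf1. That is 8 of the 20 and 8 of the 22, with Mx1, Slfn5 and Slfn8 of the first list not tested in the second set. The comparisons use different arrays and vehicle mice, and the difference between them was not tested. The 14 called only in the second were Adar, Daxx, Dtx3l, Helz2, Ifi27, Ifi47, Lgals3bp, Lgals9, Ly6e, Nmi, Pml, Tdrd7, Trim25 and Znfx1. Their fitted changes after NTS-1 at 8 h ran from 0.05 (Lgals9) to 2.10 (Lgals3bp) and 2.75 (Znfx1). Only Ly6e, Trim25 and Lgals9 had a larger fitted change after TS-2 at 2 weeks than after NTS-1 at 8 h. A call in 1 list alone is therefore not a difference between the lists. Cmpk2, the member furthest up at 8 h with 4.50, was up by 0.54 ± 0.21 (adjusted p = 0.0432) after TS-2 at 2 weeks. That call of Cmpk2 was lost in 11 of 15 omissions, and without the TS-2 mouse numbered 4 the change was 0.27 (limma adjusted p = 0.197).

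Trim21 was called in none of the 10 comparisons with vehicle. It read 231.9, 275.5 and 170.8 in vehicle mice at 8 h, 349.5, 474.8 and 416.3 after NTS-1 and 759, 224.2 and 404.3 after HTS-3. The NTS-1 mice were apart from vehicle and the HTS-3 mice were not, and the fitted change was 0.89 ± 0.34 in both (adjusted p = 0.523 and 0.289). At 2 weeks Trim21 ranged from 150.1 to 241.5 in vehicle mice, with a median of 182.4, and read 189.2, 218.6, 264.2, 187.3 and 258.6 after TS-2, overlapping them.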

How the data were processed

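Liver RNA of 56 mice was measured on Affymetrix arrays, 1 mouse per array, with 37 single-dose and 19 two-week arrays. The deposited table holds intensities on a linear scale, which the authors made with RMA, per the submitters' processing notes, and whose version and settings no label states. The fits were designed for log2 values, and log2 of the deposited intensity was taken. Of 45101 probe sets, 34958 had 1 gene in the platform annotation, 932 several and 9211 none. A gene was read from its probe set with the highest mean. Genes at or above the array's 40th percentile on at least 3 arrays were tested, 14454 in the 2-week arrays and all 18195 in the single-dose arrays, where that percentile is the floor, so shares and medians over all genes there include genes at the floor.

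Each set was fitted once with limma 3.58.1 in R 4.3.3, with 1 mean per group and no covariate, and p-values were adjusted by Benjamini-Hochberg within each comparison at 0.05. Changes are differences of mean log2 intensity with their SE. A fold against a group whose mean lies under 32 sets the brighter mean, as measured, against that group with each reading raised to at least 32, and is written as "at least", and none is given where both means do. Of 837 pairs of arrays, 0 were identical. Replicate numbers do not pair mice. Checked on simulated data for NTS-1 at 8 h (18195 genes), the fit recovered 52% of 2-fold and 88% of 4-fold changes. For HTS-3 at 16 h (18195 genes) it recovered 58% and 99%, and for TS-2 at 2 weeks (14454 genes) 94% and 100%. False calls numbered 6, 6 and 13. Changes were added only to genes that were not dim in vehicle mice, and the simulated noise had no floor. The rates thus do not cover members that are dim in vehicle mice.

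The members and lists were chosen with earlier results of these data known. Values by mouse are given for the 8 members with the largest called change after NTS-1 at 8 h, up to 4 in each other comparison with vehicle, the 4 largest and 4 smallest losses, and members called in none. Alternatives were the mean of probe sets, other filters, quantile normalization, array weights, a replicate block, the compared groups alone, the label of 1 HTS-3 mouse, part of the vehicle mice, and each mouse left out in turn.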

Additional observations from a re-analysis of the deposited data

Results flagged for a closer look

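In 213 sets of readings, each of 1 member in 1 group of 4 to 10 mice, the highest or lowest was tested for a wide gap (Dixon's test). Of these sets 18 had a reading that stood apart, where chance gives about 1 in 20. The sets come from the same few mice and are not independent, so that rate is only a rough guide. After HTS-3 at 16 h these were Rsad2 at 338 and Pml at 406, both in the mouse numbered 4, Nmi, a partner of Ifi35, at 1756, and Tor3a at 130. After TS-2 at 72 h they were Parp9 at 2364, Helz2 at 1848 and Tor3a at 110, all in the mouse numbered 3. After NTS-1 at 16 h they were Slfn9 at 43.5, Pml at 51.5 and Daxx at 324 in the mouse numbered 2, and Slfn5, low, at 21.1. Trim30a was low at 72.4 in 1 TS-2 mouse at 8 h. In the 2-week set Ifitm3 (9622), Lgals3bp (558) and Lgals9 (6135) were high in the vehicle mouse numbered 7. After TS-2 at 2 weeks Rtp4 (332) and Nmi (524) were low in the mouse numbered 1 and Slfn2 was high at 140.

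Effects that differed between times by the test of the difference are the second kind. For NTS-1 between 16 and 8 h these were Mx2 (-1.98 on the log2 scale), Trim30a (-2.61), Slfn9 (-1.27), Samd9l (-2.37) and Sp100 (-1.52). Between 72 and 8 h they were Rsad2 (-4.10), Cmpk2 (-4.26), Mx2 (-2.86), Trim30a (-3.26), Slfn5 (-1.95), Slfn8 (-3.07), Slfn9 (-1.54), Samd9l (-3.47) and Tor3a (-3.32). For HTS-3 between 16 and 8 h they were Bst2 (-0.78), Ifi27 (-1.82), Ifi27l2a (-4.60), Trim30a (-2.51) and Epsti1 (-2.97).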

How the results depend on the processing

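No called change of a member reversed under the alternatives run for it, and the counts of called members moved as follows. Fitted on the compared groups alone, members passing against vehicle were 2 for NTS-1 at 8 h, 0 at 16 h and 2 at 2 weeks, and 0 for HTS-3 at 16 h. TS-2 against NTS-1 then gave 11 at 8 h, 6 at 16 h and 4 at 2 weeks, and HTS-3 against NTS-1 0 and 10. The difference between times gave 0 for NTS-1 and 0 for HTS-3, NTS-1 levels 3 and vehicle levels 0. These fits use fewer mice to estimate the spread. Array weights gave 18 for NTS-1 at 16 h and 5 at 2 weeks, 4 for TS-2 at 16 h, 4 and 3 for HTS-3 at 8 and 16 h, 32 and 21 for TS-2 against NTS-1 at 8 and 16 h, 27 for HTS-3 against NTS-1 at 8 h, and 2 for vehicle levels. The filter at 32 gave 1 for HTS-3 at 8 h and 3 for both the NTS-1 difference and vehicle levels. The mean of probe sets gave 0 for vehicle levels. Quantile normalization gave 1 for NTS-1 at 2 weeks and 3 for TS-2 against NTS-1. With the HTS-3 mouse of doubtful label at 16 h, HTS-3 gave 1 at 8 h, 1 at 16 h and 2 for the difference. The cause was not tested.

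With the replicate number as a block, 3 members passed for HTS-3 at 16 h, 4 for TS-2 against NTS-1 at 2 weeks, 3 for the NTS-1 difference between 16 and 8 h, and 5 for NTS-1 levels. NTS-1 gave 20 at 8 h and 7 at 16 h with the block, and TS-2 at 2 weeks 19. Same-numbered mice correlated from -0.497 to 0.475 and in no comparison were all pairs above 0.1.

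With 1 mouse left out, counts ranged from 17 to 21 for NTS-1 at 8 h, 4 to 9 at 16 h and 0 to 1 at 2 weeks, and for TS-2 from 18 to 25 at 2 weeks. HTS-3 ranged from 0 to 3 at 8 h and 1 to 6 at 16 h. TS-2 against NTS-1 ranged from 19 to 22, 10 to 13 and, at 2 weeks, 2 to 12. HTS-3 against NTS-1 ranged from 10 to 22 and 13 to 16. The NTS-1 difference ranged from 3 to 7 at 16 h and 8 to 12 at 72 h, that of HTS-3 from 4 to 6, NTS-1 levels from 4 to 10 and vehicle levels from 0 to 3. Readings at the floor limit what can be said of Mx1, Mx2, the Schlafen genes and Sp100.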
